A study of Mus musculus with 6 samples.

Results

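The genes described here are 4 sialyltransferase genes of mouse MLE-15 cells, St8sia2, St8sia3, St8sia4 and St8sia6, whose enzymes add sialic acid in α2,8 linkage to glycans of proteins. They were found through the RefSeq accession in the name of each probe set, and all 4 of the 4 genes were measured, each by 1 probe set, among 909 named genes and 1246 probe sets in all. MLE-15 is a lung epithelial line from a mouse tumour driven by SV40 large T antigen under the promoter of a human surfactant protein gene. The arrays were 3 of cells given PMA (phorbol 12-myristate 13-acetate, an activator of protein kinase C) and 3 of control cells, with no difference in genotype or strain between the groups named in the labels. The dose of 10 nM for 24 h is stated in the series design text, which asks whether sialyltransferases are present and induced by PMA. Nothing in the labels says that replicates were separate cultures, so p-values measure the spread between these arrays, which may be technical.

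Sialic acids are acidic sugars at the ends of glycans, put there in the Golgi by enzymes that use CMP-sialic acid as donor. Most sialyltransferases cap galactose or N-acetylgalactosamine, and the St8sia enzymes join sialic acids to each other. St8sia2 and St8sia4 build polysialic acid, a long chain best known on the neural cell adhesion molecule, where it weakens contact between cells. St8sia3 makes short chains and is known mainly from brain, while St8sia6 prefers the sialylated O-glycans of mucin-type glycoproteins.

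The start regions of the genes are shown because phorbol esters act in part through the AP-1 element TGANTCA, for which the windows were searched on both strands. Windows for 3 of the 4 genes were taken from the RefSeq promoter table of build GRCm38.p6, and St8sia3 was left out of this search. Each window was 300 bases long, with 250 before and 50 after the start. All are on the minus strand of the genome and written in the direction of the gene. They lie at chr7:74013633-74013932 for St8sia2, chr1:95667545-95667844 for St8sia4 and chr2:13793471-13793770 for St8sia6, and capitals mark the GC box GGGCGG or its complement on the other strand, CCGCCC.
St8sia2: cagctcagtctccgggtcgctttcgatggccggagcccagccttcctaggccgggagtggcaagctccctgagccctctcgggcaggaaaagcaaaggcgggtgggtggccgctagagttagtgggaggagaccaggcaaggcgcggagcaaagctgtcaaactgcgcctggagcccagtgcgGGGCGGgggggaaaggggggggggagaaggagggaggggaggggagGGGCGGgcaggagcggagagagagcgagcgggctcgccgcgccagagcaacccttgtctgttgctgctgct
St8sia4: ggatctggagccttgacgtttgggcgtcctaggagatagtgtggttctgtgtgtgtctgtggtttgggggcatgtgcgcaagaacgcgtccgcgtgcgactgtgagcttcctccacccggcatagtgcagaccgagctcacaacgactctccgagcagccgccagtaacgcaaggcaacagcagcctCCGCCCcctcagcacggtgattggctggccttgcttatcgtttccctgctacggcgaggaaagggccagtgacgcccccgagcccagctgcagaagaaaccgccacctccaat
St8sia6: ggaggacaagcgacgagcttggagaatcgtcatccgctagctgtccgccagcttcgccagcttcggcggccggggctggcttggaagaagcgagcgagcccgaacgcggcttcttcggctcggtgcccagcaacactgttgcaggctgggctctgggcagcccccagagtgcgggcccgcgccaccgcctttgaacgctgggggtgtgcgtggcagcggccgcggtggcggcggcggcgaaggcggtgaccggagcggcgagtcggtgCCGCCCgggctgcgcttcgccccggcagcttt

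The St8sia2 window held 2 matches to GGGCGG, which began 67 and 21 bases before the gene start. The St8sia4 window held 1, which began 63 bases before the start, and the St8sia6 window 1, at offset 18 inside the transcript. Of 32851 windows of the same length in the table, 35.7% held GGGCGG. Neither TGANTCA nor the TATA box TATAAA was found in any of the 3 windows, against 7.81% and 13.6% of all windows. The motifs cannot overlap one another in these windows, since only GGGCGG was matched. The St8sia2, St8sia4 and St8sia6 windows were 68.7%, 61.3% and 72.0% G or C, above the median of 52.7% over all windows.

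Values are RMA values on the log2 scale, so that each unit is a doubling of signal. Array medians lay between 5.64 and 5.71 and lower quartiles between 4.32 and 4.43. Arrays with replicate number 1 stood apart in both groups, with 110 to 125 probe sets differing by over 1 log2 unit from any array of number 2 or 3, against 0 among the arrays of numbers 2 and 3 and at most 1 within a number. Each member is therefore also given without number 1. The table has no background probe sets, so presence cannot be called, and a value of one probe set does not rank its transcript against another. Of 12 lung epithelial markers listed, 3 were measured, Sftpa1, Sftpd and Muc1, so the labelled cell type could hardly be checked. Sftpa1, a surfactant protein of alveolar type II cells, averaged 3.49 in PMA and 3.53 in control arrays, below the lower quartile of the arrays. None of the defining epithelial markers Epcam, Cdh1, Krt8, Krt18, Sftpb, Sftpc and Nkx2-1 was analysed here.

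St8sia2, one of the polysialyltransferases, had the widest spread of the members. Its values were 6.58, 4.71 and 4.59 in PMA arrays 1, 2 and 3, against 6.29, 4.56 and 4.48 in control arrays 1, 2 and 3. The number 1 array was the high one in each group, the other 4 lay close together, and the PMA and control groups overlapped. St8sia2 averaged 5.29 ± 1.12 in PMA and 5.11 ± 1.02 in control arrays (SD, n = 3 each).

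St8sia4, the other polysialyltransferase, had 3.05, 3.16 and 3.16 in PMA arrays 1, 2 and 3, against 3.29, 3.10 and 3.21 in control arrays 1, 2 and 3. Unlike in St8sia2, the number 1 arrays were at the ends of the set, the lowest with PMA and the highest in control. The groups overlapped, at 3.12 ± 0.065 in PMA and 3.20 ± 0.092 in control arrays (SD, n = 3 each).

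St8sia3, the maker of short α2,8 chains, had 3.42, 3.43 and 3.34 in PMA arrays 1, 2 and 3, against 3.54, 3.52 and 3.37 in control arrays 1, 2 and 3. Number 3 was the lowest array in each group, and the groups overlapped. St8sia3 averaged 3.39 ± 0.049 in PMA and 3.48 ± 0.092 in control arrays (SD, n = 3 each). Both St8sia3 and St8sia4 were below the lower quartile on all 6 arrays, with 8.35% to 11.0% of probe sets lower than St8sia3 and 2.09% to 6.58% lower than St8sia4. Signal over background is not known here.

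St8sia6, the enzyme of O-glycans, had 9.10, 9.09 and 8.76 in PMA arrays 1, 2 and 3, against 8.81, 8.58 and 8.73 in control arrays 1, 2 and 3. PMA arrays 1 and 2 were above every control array, and PMA array 3 was below control array 1, so the groups overlapped. St8sia6 averaged 8.98 ± 0.19 in PMA and 8.71 ± 0.11 in control arrays (SD, n = 3 each). On each array 82.0% to 86.3% of probe sets were lower. Its probe set carries the suffix s, for probes that can bind several transcripts, and the probe sets of St8sia2, St8sia3 and St8sia4 do not. The suffix is on 237 of the 1246 probe sets, among them those of Cmah, Renbp, Ust, St8sia1 and St8sia5, named below.

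**Figure D1:**
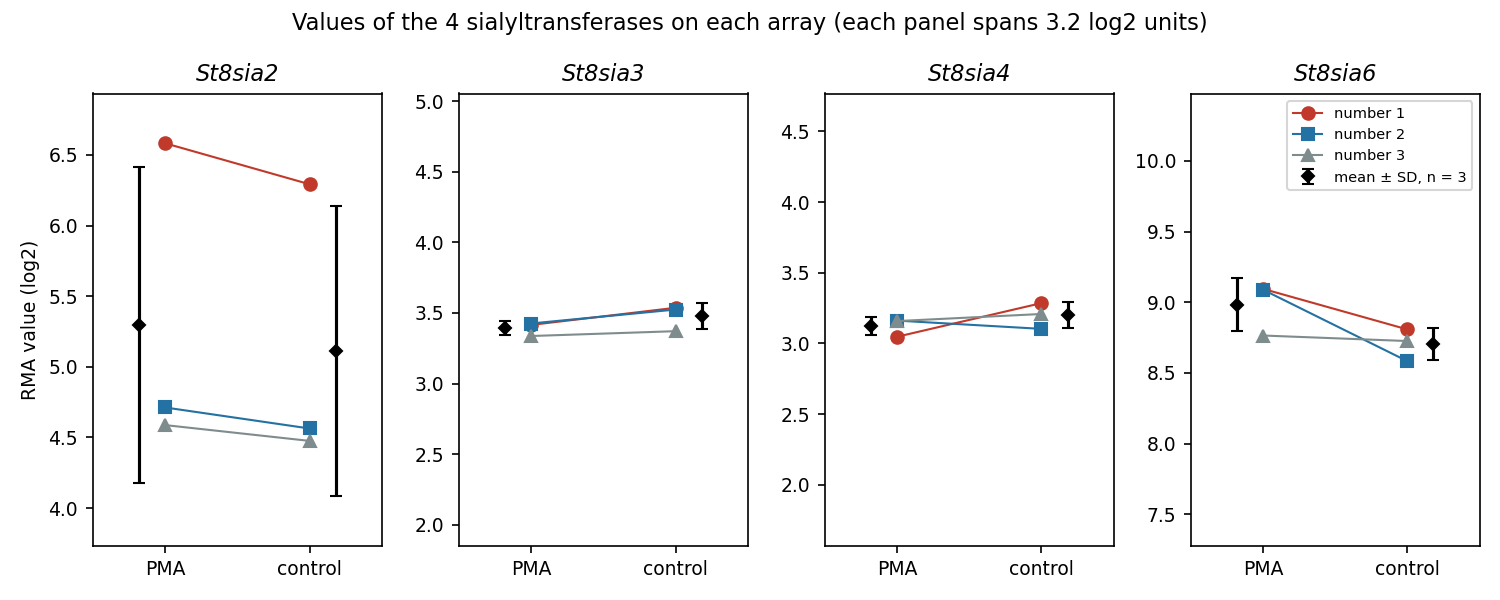
RMA values (log2) of St8sia2, St8sia3, St8sia4 and St8sia6 on each array, PMA left and control right, with lines joining arrays of the same number and black diamonds for the mean ± SD (n = 3). The panels have different positions but the same height, and St8sia2 in the number 1 arrays, at 6.58 with PMA and 6.29 in control, stands clear of its other 4 values.

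The first question was whether PMA changed any of these genes. The arrays measure RNA of whole samples, in which fewer cells with a transcript and less of it per cell cannot be told apart. None of the 4 passed. With Benjamini-Hochberg adjustment over all 1246 probe sets, limma gave each an adjusted p = 0.999. It called 0.0% of all probe sets, and 4 probe sets had an unadjusted p below 0.05. Blocking on the number, limma also called 0.0%, with 42 probe sets at an unadjusted p below 0.05. Both counts lie below the share of 0.05 that this threshold would give by chance. Each member had an adjusted p = 0.992 by limma in the blocked fit. The PMA mean was above the control mean for St8sia2 and St8sia6 and below it for St8sia3 and St8sia4, and the median difference of the 4 was 0.054, beside 0.0033 over all probe sets. The PMA and control groups overlapped in all 4 members, where 3.37% of all probe sets had no overlap. Of the 4 members, 3 had the same sign in all 3 numbers, as did 23.1% of all probe sets.

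St8sia6 showed the largest difference of the members, 0.28 log2 units (SE 0.12; 1.21-fold). The 95% interval ran from -0.023 to 0.58 without the block and from 0.072 to 0.48 with it. Within numbers 1, 2 and 3 the PMA minus control difference was 0.29, 0.51 and 0.039. All 3 were above 0, as in 10.4% of all probe sets, and 8 of the 1246 probe sets, St8sia6 included, had an absolute difference at least as large. St8sia6 had an unadjusted p of 0.0639 by limma without the block and of 0.0139 with it, neither of which survived the adjustment.

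St8sia2 differed by 0.18 log2 units (SE 0.75; 1.14-fold), and its numbers 1, 2 and 3 gave 0.29, 0.15 and 0.11. Its interval depended most on the block, from -1.69 to 2.06 without it and from 0.028 to 0.34 with it. The unadjusted p by limma was 0.815 without the block and 0.0260 with it. Each array left out in turn, in the fit without the block, leaves a number without its partner. The difference was then -0.46 without PMA 1, -0.090 without control 2 and -0.13 without control 3. It was 0.47 without PMA 2, 0.54 without PMA 3 and 0.77 without control 1.

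St8sia3 differed by -0.085 (SE 0.072), with -0.12, -0.099 and -0.034 in numbers 1, 2 and 3. St8sia4 differed by -0.077 (SE 0.075), with -0.24, 0.059 and -0.050, so that its numbers did not share a sign. With 1 array left out, St8sia3 ran from -0.14 without control 3 to -0.055 without control 1, and St8sia4 from -0.12 without control 2 to -0.033 without control 1. In the blocked fit the intervals of St8sia3, from -0.23 to 0.062, and of St8sia4, from -0.25 to 0.096, spanned 0. The highest upper bound among the 4 blocked intervals was the 0.48 of St8sia6, a bound on measured signal in these arrays only.

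**Figure D2:**
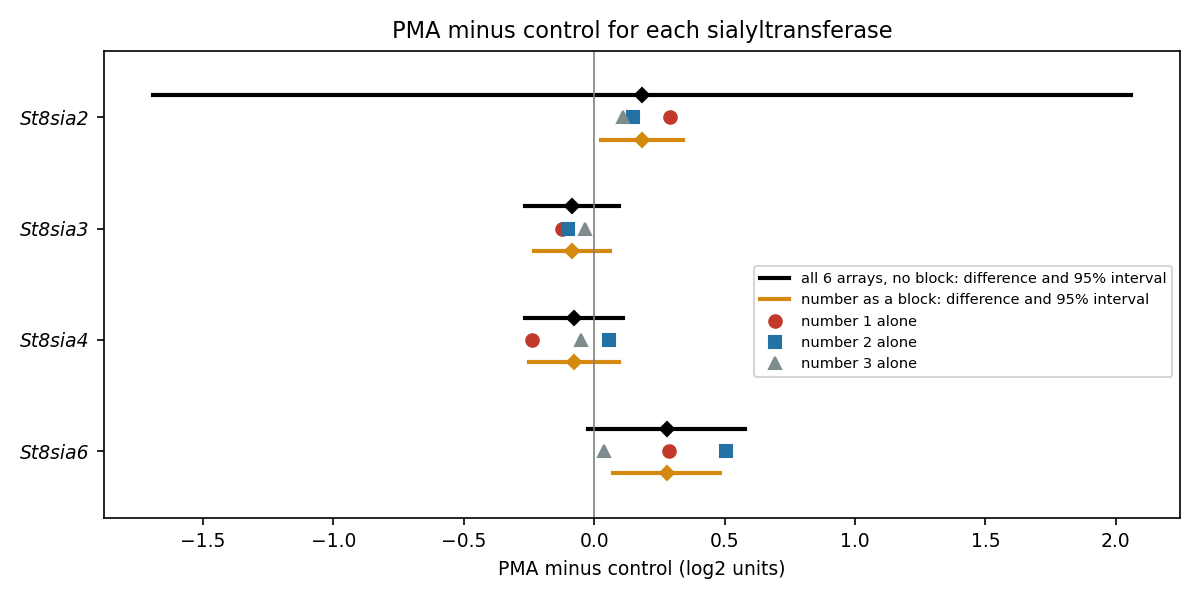
PMA minus control (log2 units) for each gene, with diamonds and bars for limma's difference and 95% interval without the block (black) and with the number as a block (orange), and coloured symbols for each number alone. The St8sia2 bar narrows from the widest, -1.69 to 2.06, to 0.028 to 0.34 with the block, and the 3 numbers lie above 0 for St8sia2 and St8sia6.

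With number 1 left out of both groups, St8sia6 differed by 0.27, St8sia2 by 0.13, St8sia3 by -0.067 and St8sia4 by 0.0041, and limma again called 0 probe sets. Whether the PMA difference depended on the number was tested as an interaction. For St8sia2 the PMA difference in number 1 minus that in numbers 2 and 3 was 0.16 (SE 0.14), for St8sia4 -0.24 (SE 0.13), for St8sia3 -0.055 (SE 0.15) and for St8sia6 0.015 (SE 0.20). None of the 4 passed by limma, at adjusted p = 0.830, 0.749, 0.958 and 0.988, where 0.0803% of all probe sets did, which was the single unnamed probe set uc009kma.1_psr1_at.

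The second comparison set the number 1 arrays against those of numbers 2 and 3, with PMA as a term. Titles of the number 1 samples lack the letter (A or B) that the other titles carry, but the labels do not say what the number stands for, and 1 pair is set against 2, so the test speaks of these arrays only. St8sia2 was 3.61-fold higher in number 1. It had 6.58 and 6.29 in the number 1 arrays, against 4.48 to 4.71 in the 4 arrays of numbers 2 and 3, and the 2 sets of arrays did not overlap. The means were 6.44 and 4.58, a difference of 1.85 log2 units (SE 0.075, 95% interval 1.68 to 2.02). It passed by limma with an adjusted p = 1.32e-08.

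The difference in St8sia2 was of like size in each group, 1.93 in PMA arrays alone and 1.77 in control arrays alone. The 4 arrays of numbers 2 and 3 had an SD of 0.098, and number 3 minus number 2 gave -0.11 (SE 0.084), which did not pass (adjusted p = 0.953). Between numbers 2 and 3 limma called 0.0% of all probe sets, and 61 probe sets had an unadjusted p below 0.05.

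The other 3 members did not pass. St8sia6 averaged 8.95 in number 1 and 8.79 in numbers 2 and 3, a difference of 0.16 (SE 0.094, adjusted p = 0.204 by limma). Without PMA 2 the St8sia6 difference was 0.23 and passed by limma (adjusted p = 0.0410), and after quantile normalization of the deposited values it was -0.016. St8sia3 averaged 3.48 and 3.41, a difference of 0.062 (SE 0.074, adjusted p = 0.538 by limma). St8sia4 averaged 3.17 and 3.16, a difference of 0.0084 (SE 0.078, adjusted p = 0.939 by limma). Between numbers 2 and 3, number 3 minus number 2 was -0.12 for St8sia3, 0.051 for St8sia4 and -0.091 for St8sia6, and none passed.

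Of the 4 members 1 was called, and that has to be read against 41.7% of all probe sets called, 27.5% higher and 14.1% lower in number 1. Likewise 55.9% of all probe sets had no overlap between number 1 and the other arrays. The size of the St8sia2 difference was less common: 42 of the 1246 probe sets, St8sia2 included, had an absolute difference at least as large. The median difference was 0.11 over the members and 0.079 over all probe sets. Quantile normalization of the deposited values moved the share of calls that were higher in number 1 to 54.5%, against 66.1% as deposited, and St8sia2 was called under both.

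**Figure D3:**
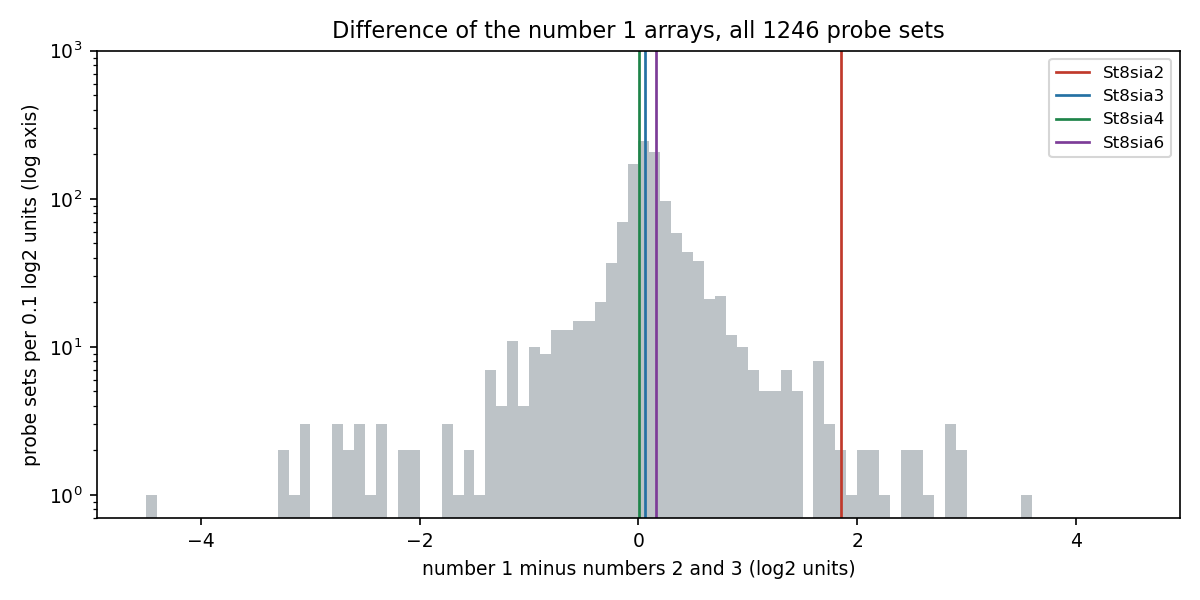
Histogram of the difference of the number 1 arrays minus the arrays of numbers 2 and 3 (log2 units) over all 1246 probe sets, with a log axis for probe sets per bin and vertical lines at the 4 members. St8sia3, St8sia4 and St8sia6 stand in the central peak, at 0.062, 0.0084 and 0.16, and St8sia2 in the upper tail at 1.85.

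Some marker genes of other cells also differed in the number 1 arrays, and their part in the St8sia2 difference was not tested. Of all probe sets, 27.5% were called higher and 14.1% lower in number 1. Of 3 neural markers measured out of 7 listed, the setting in which St8sia2 is best known, 0 passed, with summed log2 values of 16.3 to 16.4 in number 1 and 15.9 to 16.3 in the other arrays. Of 5 leukocyte markers measured out of 11, 0 were higher and 2 lower, the chemokine receptor Ccr7 at -3.22 and the mannose receptor Mrc1 at -2.74. Csf1r, Cd22 and Siglech did not pass, at 0.10, 0.018 and -0.030. Sums of the leukocyte markers were 24.4 to 25.5 in number 1 and 30.6 to 31.0 in the others. Of 4 endothelial and fibroblast markers measured out of 8, 0 were higher and 3 lower, Pecam1, Vcam1 and Sele, with sums of 22.4 to 22.6 and 25.7 to 26.4. Pdgfra, the only fibroblast marker measured, stood at 0.20 and did not pass. Of the 3 epithelial markers, Sftpa1 and Muc1 were higher, at 0.52 and 0.33, with sums of 15.0 to 15.2 and 13.9 to 14.4. Presence of a marker cannot be called from these values, so they do not show that any was expressed. Between PMA and control none of these markers passed, and the largest difference was that of Mrc1, 0.38 (SE 1.11), with 0.80, 0.25 and 0.10 in numbers 1, 2 and 3.

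Genes whose profiles were most like each member were taken by the root mean square difference over the 6 arrays after each gene's mean was removed, among 908 other named genes. For St8sia2 these were B3gnt7, which extends keratan-type chains, at 0.13 log2 units, Ext1, a heparan sulfate polymerase, at 0.14 and the uronyl 2-O-sulfotransferase gene Ust at 0.14. Their number 1 differences of 1.99, 2.01 and 1.71 follow from the choice, since the spread of St8sia2 is largely that between number 1 and the other arrays. St8sia2 varied by 0.88 about its own mean on the same measure, and 13 genes came within 0.2 of its profile.

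For the flatter members nearness to a profile says less, since any flat gene comes near. St8sia3 varied by 0.074 about its mean and 254 genes lay within 0.1 of it, led by Pf4 at 0.012, Fgf10 at 0.021 and Hs6st2 at 0.030. St8sia4 varied by 0.075 and 181 genes lay within 0.1, led by Mtif2 at 0.019, Bmpr1b at 0.029 and Slc35b3 at 0.038. St8sia6 varied by 0.19, with 3 genes within 0.1, B3gat2 at 0.076, Tgfbr1 at 0.087 and the α2,3-sialyltransferase gene St3gal4 at 0.089.

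The rest of the pathway was read from lists of other genes. The number 1 calls in each list have to be read beside all probe sets, of which 27.5% were called higher and 14.1% lower. The ganglioside α2,8-sialyltransferases, St8sia1 (GD3 synthase) and St8sia5, had number 1 differences of 0.048 and 0.0015, neither of which passed. Of 13 other sialyltransferases measured out of 14, 8 were higher in number 1, 0 lower and 5 did not pass, with a median difference of 0.28. The largest were St6galnac2, which acts on O-glycans, at 2.82, St6gal1, the α2,6-sialyltransferase of N-glycans, at 2.22, and St3gal5 at 1.79. Next came St3gal1 at 1.17, St3gal3 at 0.84 and St6galnac6 at 0.51. St6gal1 and the St3gal enzymes of glycoproteins cap galactose with sialic acid, to which α2,8 chains are added. St3gal5 belongs to ganglioside synthesis instead.

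Of 7 genes of CMP-sialic acid synthesis, transport and turnover measured out of 8, 6 were higher in number 1 and 1 lower, with a median difference of 0.47. Cmah, which hydroxylates CMP-sialic acid to its N-glycolyl form, stood at 2.03, the epimerase gene Renbp at 0.67 and the lyase gene Npl at 0.67. Npl was below the lower quartile on all 6 arrays, and Cmah on 2 of them. Cmah and Renbp were measured by probe sets with the suffix s. The Golgi transporter gene Slc35a1 stood at 0.47 and the synthase gene Nans at 0.36. After quantile normalization Slc35a1 stood at 0.27 and Nans at 0.20, and both still passed. Cmas, which makes CMP-sialic acid, was lower, at -1.06. Gne, the first enzyme of the pathway, passed as deposited at 0.30 but not after quantile normalization (0.23, adjusted p = 0.0512 by limma). Of 3 sialidases measured among 6 genes of sialidases and O-acetylation, Neu1 of the lysosome was lower at -0.24 (-0.44 after quantile normalization), and Neu2 and Neu3 did not pass.

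Genes that build the acceptor glycans went both ways. Of 10 N-glycan core enzymes, 3 were higher, B4galt1 at 1.36, Man2a2 at 0.48 and Mgat3 at 0.44, and 1 was lower, Fut8, the core fucosyltransferase, at -0.99. After quantile normalization Mgat1, Man2a1 and Mgat4b also passed as lower, at -0.31, -0.22 and -0.21. Of 5 O-glycan core enzymes measured out of 6, 0 were higher and 3 lower, the core 2 enzymes Gcnt3 at -1.33 and Gcnt1 at -0.92 and the chaperone gene C1galt1c1 at -0.28 (-0.48 after quantile normalization). Gcnt3 and Gcnt1 each had 2 probe sets, and only the one of highest mean is given. C1galt1, at -0.29, missed the threshold as deposited and passed with array medians set equal (-0.33, adjusted p = 0.0481 by limma).

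Of 6 glycoproteins listed as carriers or possible carriers of polysialic acid, 1 was measured, and Ncam1, Nrp2 and Cadm1 were not analysed here. Ccr7, a chemokine receptor that St8sia4 polysialylates on dendritic cells, averaged 5.07 in number 1 and 8.29 in numbers 2 and 3, a difference of -3.22 (SE 0.10, adjusted p = 2.78e-09 by limma). Of 9 sialic acid binding lectins, 0 were higher and 1 lower, Siglec15 at -0.45.

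PMA moved none of these lists past the threshold: 0 genes passed by limma in any list, with or without the block. The gene with the largest absolute PMA difference was St3gal1 among the other sialyltransferases (0.21), Nans in CMP-sialic acid metabolism (-0.11), Neu3 among the sialidases (0.075) and Man2a2 among the N-glycan core enzymes (-0.13). It was B3gnt6 among the O-glycan core enzymes (0.068), Ccr7 for the carriers (-0.039) and Siglech among the lectins (-0.15). Siglech had 3 probe sets, and the one used was below the lower quartile on all 6 arrays. St8sia1 and St8sia5 differed by 0.050 and -0.052. The PMA mean was the higher one for 12 of the 13 other sialyltransferases, against 52.2% of all probe sets, with a median difference of 0.070. Within numbers 1, 2 and 3 the PMA value was the higher one for 8, 10 and 6 of the 13, against 48.9%, 50.4% and 46.7% of all probe sets.

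**Figure D4:**
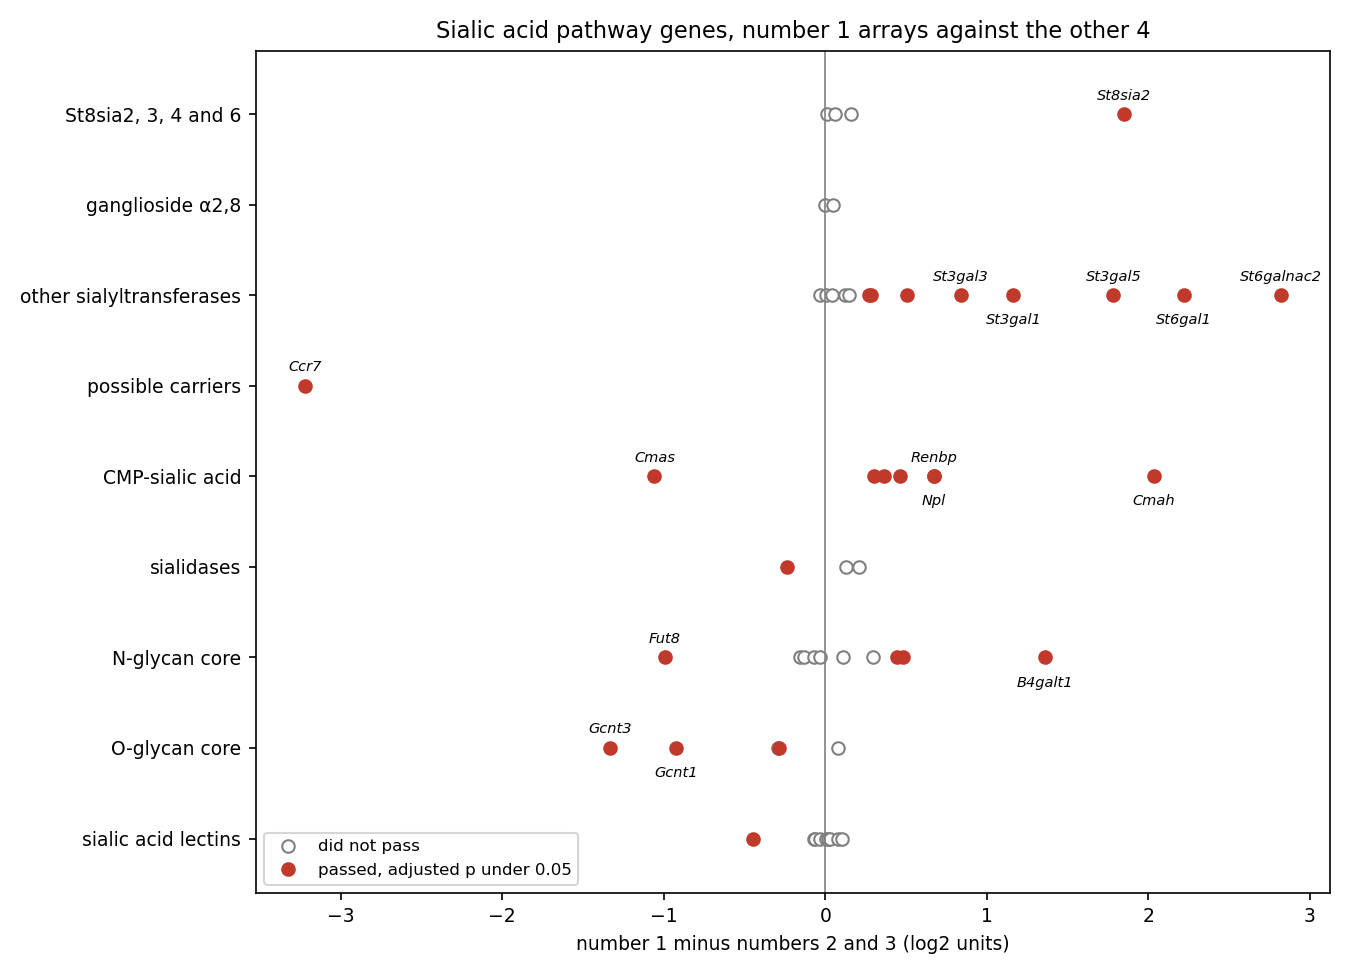
Number 1 minus numbers 2 and 3 (log2 units) for the measured genes of each list, 1 point a gene, filled red where limma's adjusted p was under 0.05 and open where it was not, with names for passing genes beyond 0.6 log2 units. St8sia2 at 1.85 stands with St3gal5, St6gal1 and Cmah toward the right, and Ccr7 at -3.22 is the leftmost point.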

How the data were processed

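RNA of 6 MLE-15 samples was measured on Affymetrix arrays, from Trizol extracts, per the labels' protocols. The authors deposited log2 values made with RMA, per the submitters' processing notes. RMA corrects background, quantile-normalizes arrays and summarises probes, so a shift of all transcripts together would not be seen. The array type, annotation and software version were not stated in the labels.

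Of 1246 probe sets, 963 were named by matching the accession in their name, without version, to the RefSeq gene table of GRCm38.p6. Where a gene had several probe sets (48 genes), that of highest mean was used, and each member had 1. Groups and numbers came from the sample titles. All probe sets were fitted with limma 3.58.1 in R 4.3.3 (lmFit, eBayes), and an adjusted p (Benjamini-Hochberg) below 0.05 passed. The fits were PMA minus control without covariates, number 1 minus numbers 2 and 3 with PMA as a term, number 3 minus number 2 with the number as a factor, and the interaction of PMA with number 1. SE is limma's moderated standard error. The fits were tested on simulated data. Precision is limited by the number of arrays.

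The groups share numbers 1, 2 and 3. Deviations from the group mean correlated across probe sets at 0.956, 0.815 and 0.912 for the same numbers, over the 0.1 set for pairing, so the blocked fit is given too. Because number 1 lies far from the rest, control 2 also correlated at 0.886 with PMA 3, and control 3 at 0.838 with PMA 2. The check therefore cannot tell whether the arrays of numbers 2 and 3 are paired.

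All members are named, with, in each list of pathway genes, up to 6 passing genes of largest difference and the gene of largest PMA difference, and the 3 closest profiles per member. Markers, Gne and genes whose call changed with the scaling were named after their values were seen. One gene was left out of the lists and is not reported here. Members, lists and the comparison of number 1 were chosen with earlier results of these data known. Alternatives changed the scaling, the filter on low values, the variance model, the block and the arrays used.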

Additional observations from a re-analysis of the deposited data

How the results depend on the processing

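For St8sia2 the difference of number 1 kept its direction and its call under all 16 alternatives tried, with values of 1.77 to 1.93, also when each array was left out in turn. Not all of these alternatives are separate. Leaving out PMA 1 repeats the estimate of control arrays alone, 1.77, and leaving out control 1 that of PMA arrays alone, 1.93. The number of probe sets called in that comparison ran from 403 to 543. PMA minus control gave 0 called probe sets by limma under all 14 alternatives, with 4 at an unadjusted p under 0.05 without a replicate block and 42 with the replicate block. The block changed no call of the 4 members, which had differences of 0.18 for St8sia2, -0.085 for St8sia3, -0.077 for St8sia4 and 0.28 for St8sia6 in both fits. Small differences that did not pass changed sign, and the cause was not tested. With number 1 left out of both groups St8sia4 differed by 0.0041 between PMA and control. In the comparison of number 1, St8sia4 stood at -0.11 in PMA arrays alone, at -0.017 against number 3 alone, at -0.031 with array medians set equal and at -0.065 after quantile normalization, where St8sia3 stood at -0.0082 and St8sia6 at -0.016. The interaction of St8sia6 was -0.031 with array medians set equal. Called probe sets in the interaction, 1 as reported, were 0 after quantile normalization and 0 with an intensity trend.

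With each array left out in turn, which leaves a number without its partner, PMA minus control without the block ran from -0.46 to 0.77 for St8sia2. In the comparison of number 1, St8sia4 ran from -0.11 to 0.13 and St8sia6 from 0.090 to 0.23, with the highest value, without PMA 2, past the threshold. Number 3 minus number 2 ran from -0.051 to 0.15 for St8sia4 and from -0.27 to 0.088 for St8sia6, with 0 to 1 probe sets called, the 1 without PMA 3. The interaction could be refitted only without arrays of numbers 2 and 3, and ran from -0.13 to 0.022 for St8sia3 and from -0.15 to 0.18 for St8sia6, with 2 to 18 probe sets called, 2 without PMA 2, 18 without PMA 3, 5 without control 2 and 9 without control 3. Where a lone array stands for its side of a comparison, it is assumed to vary like the others. Averaging the probe sets of a gene was not run, since each member has 1, and St8sia3 and St8sia4 have no value where probe sets with a mean under the lower quartile were left out. What signal over background would add for these dim probe sets is unknown.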
